A study of Mus musculus with 6 samples.

Results

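Vegfa and 7 receptors and adhesion proteins of blood vessel endothelium were followed in mouse muscle after 2 kinds of contraction: the VEGF receptors Kdr and Flt1, the Tie receptors Tek and Tie1, the junction proteins Pecam1 and Cdh5, and the TGF-beta co-receptor Eng. The rule lists the genes by name and uses no signal, and they stood for 10 of the 12488 probe sets and 8 of the 8251 genes on the array. All 10 probe sets lay above the floor signal of 120.8 on all 6 arrays, so every gene could be compared between every pair of pools.

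The muscle was the tibialis anterior of mice killed at 48 h. Eccentric muscles had made 50 contractions while being lengthened, and isometric muscles 50 contractions at a fixed length. Control muscles came from the opposite leg, which made only the contractions needed to read isometric torque. The labels do not say which exercised animals the control legs belonged to, and they give no strain, sex or age. For each of the 3 groups, total RNA of 4 animals was pooled and the pool was split onto 2 Affymetrix MGU74Av2 arrays, lettered A and B.

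A group was therefore 1 pooled biological sample. Errors below are the SD over the 2 arrays of a pool, or the SE of a log2 difference from the same arrays, and measure labelling and hybridisation only. No p-value for contraction was possible. A gene was called higher or lower when the pool means differed at least 2-fold and the 4 possible pairings of arrays between the pools shared a sign. Both exercised pools were set against the same control pool, so those comparisons share its arrays. The median signal was 186.9 to 197.25 across arrays, and 59.2% to 61.2% of probe sets exceeded the floor. The log2 ratio of the 3' to the 5' probe set of beta-actin, a measure of RNA integrity, averaged 0.04 for the control pool, 0.44 for the eccentric pool and 0.205 for the isometric pool. The ratio for 18S RNA averaged -0.90, -0.25 and 0.48, and for Gapdh -0.06, 0.12 and 0.10, in the same order. For pyruvate carboxylase it averaged 1.46, 1.295 and 1.25, and for the transferrin receptor 1.84, 2.03 and 1.76. The ratios thus did not share one order of the pools. Their part in the results was not tested.

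Vegfa encodes the main secreted growth factor for blood vessels, and in muscle it is made largely by the fibres, with endothelial and immune cells as further sources. It binds Kdr (VEGF receptor-2), which carries most of its mitogenic signal, and Flt1 (VEGF receptor-1), which binds it more tightly and, in a soluble form, acts as a decoy. Tek (Tie2) is the receptor for angiopoietins and Tie1 its partner. Pecam1 and Cdh5 (VE-cadherin) hold endothelial cells together, and Eng (endoglin) is an accessory receptor for BMP and TGF-beta ligands with Acvrl1. In whole muscle, fewer cells of a type and less RNA per cell cannot be told apart.

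The bases upstream of the start of the ligand, of its receptors and of the receptor with the largest difference are shown, because hypoxia and ETS factors are known regulators of vessel genes. Each run is the 250 bases before a start site of the RefSeq annotation on GRCm38.p6, 5′ to 3′ on the gene's own strand. Capitals mark, on either strand, GGAA (the core bound by ETS factors), GGGCGG (the GC box) and ACGTG or GCGTG (the hypoxia response core), so their reverse complements are in capitals too.
Vegfa, chr17:46032378-46032627, minus strand: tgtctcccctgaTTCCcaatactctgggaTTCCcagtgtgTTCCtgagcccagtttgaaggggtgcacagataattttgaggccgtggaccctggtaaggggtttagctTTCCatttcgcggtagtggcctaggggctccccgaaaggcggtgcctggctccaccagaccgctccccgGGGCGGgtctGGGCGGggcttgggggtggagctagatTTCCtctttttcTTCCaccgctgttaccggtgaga
Kdr, chr5:75978456-75978705, minus strand: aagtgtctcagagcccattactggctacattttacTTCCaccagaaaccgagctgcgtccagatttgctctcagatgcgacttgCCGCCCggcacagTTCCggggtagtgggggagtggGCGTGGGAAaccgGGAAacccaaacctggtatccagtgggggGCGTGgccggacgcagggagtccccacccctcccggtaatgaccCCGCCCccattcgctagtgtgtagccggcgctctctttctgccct
Flt1, chr5:147726012-147726261, minus strand: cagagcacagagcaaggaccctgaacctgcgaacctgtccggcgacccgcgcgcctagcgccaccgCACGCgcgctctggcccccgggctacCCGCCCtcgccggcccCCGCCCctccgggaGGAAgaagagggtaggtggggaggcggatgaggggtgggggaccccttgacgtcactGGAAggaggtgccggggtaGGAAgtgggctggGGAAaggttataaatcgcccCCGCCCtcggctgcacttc
Eng, chr2:32646345-32646594, plus strand: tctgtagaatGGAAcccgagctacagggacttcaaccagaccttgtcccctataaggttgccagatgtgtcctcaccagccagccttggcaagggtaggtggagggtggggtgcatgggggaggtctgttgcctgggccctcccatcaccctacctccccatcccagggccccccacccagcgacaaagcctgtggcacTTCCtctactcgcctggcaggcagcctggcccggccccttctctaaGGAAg

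The Vegfa window held 6 GGAA, 2 GGGCGG and 0 hypoxia response cores, with 59.2% G or C. A second RefSeq start of Vegfa, not shown, had 1 ACGTG and 1 GCGTG in its 250 bases (chr17:46025164-46025413). Those bases lie downstream of the first start, within the gene, and their use as a promoter was not tested. Bases further upstream than 250 were not searched for any gene. The Kdr window held 4 GGAA, 2 GGGCGG and 2 GCGTG, of which 1 GCGTG lies directly before a GGAA. The Flt1 window held 4 GGAA, 3 GGGCGG and 1 GCGTG and was the richest of the set in G or C, at 70.4%. The Eng window held 3 GGAA and none of the other motifs. The windows of Tek and Tie1 held 2 and 7 GGAA and none of the other motifs. Pecam1 and Cdh5 are named only, as 6 of the 8 genes matched an entry. Of 32851 windows of this length, 93.45% held GGAA, with a median of 3 matches, 32.74% held GGGCGG and 38.6% held ACGTG or GCGTG, and the median share of G or C was 52.4%. A match is a run of letters and not a shown binding site.

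None of the 8 genes passed the 2-fold rule in any of the 3 comparisons. Eccentric against control, 353 of 5682 genes compared were called (6.21%). Isometric against control, 69 of 5574 were called (1.24%), and eccentric against isometric 135 of 5622 (2.4%). Vegfa came nearest to the rule, 1.83-fold lower in the eccentric pool than in the control, and Eng was 1.60-fold higher in the eccentric pool. The other 6 genes differed from the control by at most 1.23-fold in the eccentric pool. At a 1.5-fold threshold with the same rule on array pairings, 2 of the 8 genes were called eccentric against control (Vegfa and Eng, 25.0%, against 19.4% of all genes), 0 isometric against control (6.21% of all genes) and 1 eccentric against isometric (Eng, 12.5%, against 12.6% of all genes). These shares lay near those of all genes, or below them.

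**Figure D1:**
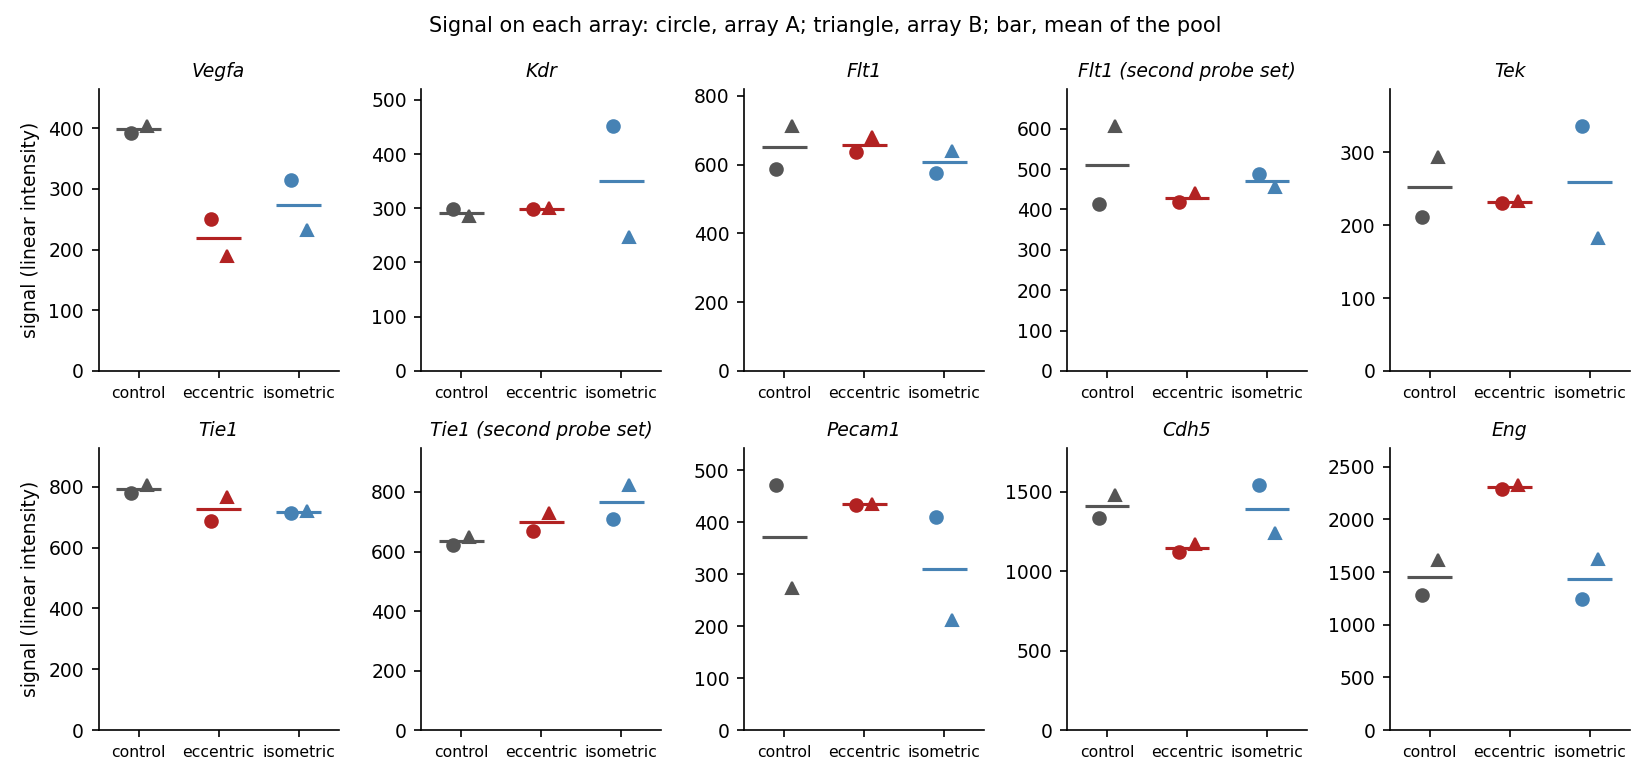
Signal of each of the 10 probe sets (linear intensity, 1 panel each) on array A (circle) and array B (triangle) of the control, eccentric and isometric pools, with a bar at the pool mean. Vegfa is highest on the control arrays at 392 and 404, Eng is highest on the eccentric arrays at 2286 and 2326, and the A and B arrays of the isometric pool stand apart for Kdr, Tek and Pecam1.

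Vegfa, the ligand, had its highest signal in control muscle. Probe set 103520_at read 392.2 and 404.2 on the control arrays A and B, 250.0 and 189.8 on the eccentric arrays, and 314.6 and 231.6 on the isometric arrays. The arrays of each exercised pool lay below those of the control, while those of the exercised pools overlapped each other. Pool means were 398 ± 8.49 (SD, n = 2 arrays) for control, 220 ± 42.6 for eccentric and 273 ± 58.7 for isometric muscle. The log2 difference was -0.87 ± 0.20 (SE) eccentric minus control, with array pairings from -1.09 to -0.65. It was -0.56 ± 0.22 isometric minus control, 1.48-fold lower, with pairings from -0.80 to -0.32. Eccentric minus isometric it was -0.31 ± 0.30, with pairings from -0.73 to 0.11, and so not separable from the spread of the arrays.

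Eccentric minus control, 109 of 5682 genes (1.92%) had a lower difference than Vegfa, and isometric minus control 178 of 5574 (3.19%). Sign aside, 8.59% and 8.18% of genes had a difference of larger size. Vegfa passed the 2-fold rule when eccentric array A was left out, at a log2 difference of -1.07, and gave -0.67 when array B was left out.  The summed signal of 10 muscle fibre markers, all above the floor on all arrays, was 278601 and 228657 in the control, 204585 and 201012 in the eccentric and 202202 and 282413 in the isometric pool. All 10 were compared, 0 were called in any comparison, and their median log2 difference eccentric minus control was -0.29, with Casq1, a calcium store protein, the lowest at -0.67. That median ran from -0.46 to -0.15 with 1 array left out. The part of the fibre content in the Vegfa values was not tested.

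Kdr, the main signalling receptor for Vegfa, read almost the same in control and eccentric muscle. Its probe set 104265_at gave 298.0 and 285.9 on the control arrays, 299.0 and 299.8 on the eccentric arrays, and 452.2 and 247.4 on the isometric arrays. The isometric arrays lay on either side of all the others. Their 1.83-fold gap was exceeded by 3.44% of the 5267 genes above the floor in that pool, whose median gap was 0.24 on the log2 scale. The log2 difference was 0.04 ± 0.03 (SE) eccentric minus control and 0.20 ± 0.44 isometric minus control, and the latter changed sign with the array chosen. Eccentric minus isometric it was -0.16 ± 0.44.

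Flt1, the high-affinity receptor and decoy, was measured by 2 probe sets. The brighter, 98452_at, read 586.8 and 712.7 in the control, 635.2 and 680.9 in the eccentric and 576.4 and 638.8 in the isometric pool. All 3 pools overlapped. Log2 differences were 0.02 ± 0.15 (SE) eccentric minus control, -0.09 ± 0.16 isometric minus control and 0.12 ± 0.09 eccentric minus isometric. The other probe set, 98453_at, read 412.3 and 607.2 in the control, 418.0 and 440.2 in the eccentric and 487.0 and 455.5 in the isometric pool. Its differences were -0.22 ± 0.28, -0.09 ± 0.28 and -0.13 ± 0.06, so the probe sets had opposite signs eccentric against control and eccentric against isometric.

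Tek, the angiopoietin receptor, overlapped between all pools. Its probe set 102720_at read 210.8 and 293.2 in the control, 230.6 and 233.1 in the eccentric and 336.3 and 182.6 in the isometric pool. The log2 difference was -0.10 ± 0.24 (SE) eccentric minus control, -0.005 ± 0.50 isometric minus control and -0.10 ± 0.44 eccentric minus isometric. As for Kdr, isometric array A read well above array B, by 1.84-fold, a gap exceeded by 3.23% of genes.

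Tie1, the orphan partner of Tek, was measured by 2 probe sets that disagreed. The brighter, 99936_at, read 779.8 and 805.6 in the control, 686.6 and 765.8 in the eccentric and 713.0 and 720.4 in the isometric pool. The control arrays were the highest, by a log2 difference of -0.13 ± 0.08 (SE) eccentric minus control and -0.15 ± 0.02 isometric minus control. The second, 161184_f_at, whose suffix marks probes shared within a sequence family, read 620.2 and 647.3 in the control, 670.5 and 730.3 in the eccentric and 709.8 and 823.3 in the isometric pool. There the control arrays were the lowest, with differences of 0.14 ± 0.07 and 0.27 ± 0.11. Eccentric minus isometric, the probe sets gave 0.02 ± 0.08 and -0.13 ± 0.12. No direction for Tie1 followed from these arrays.

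**Figure D2:**
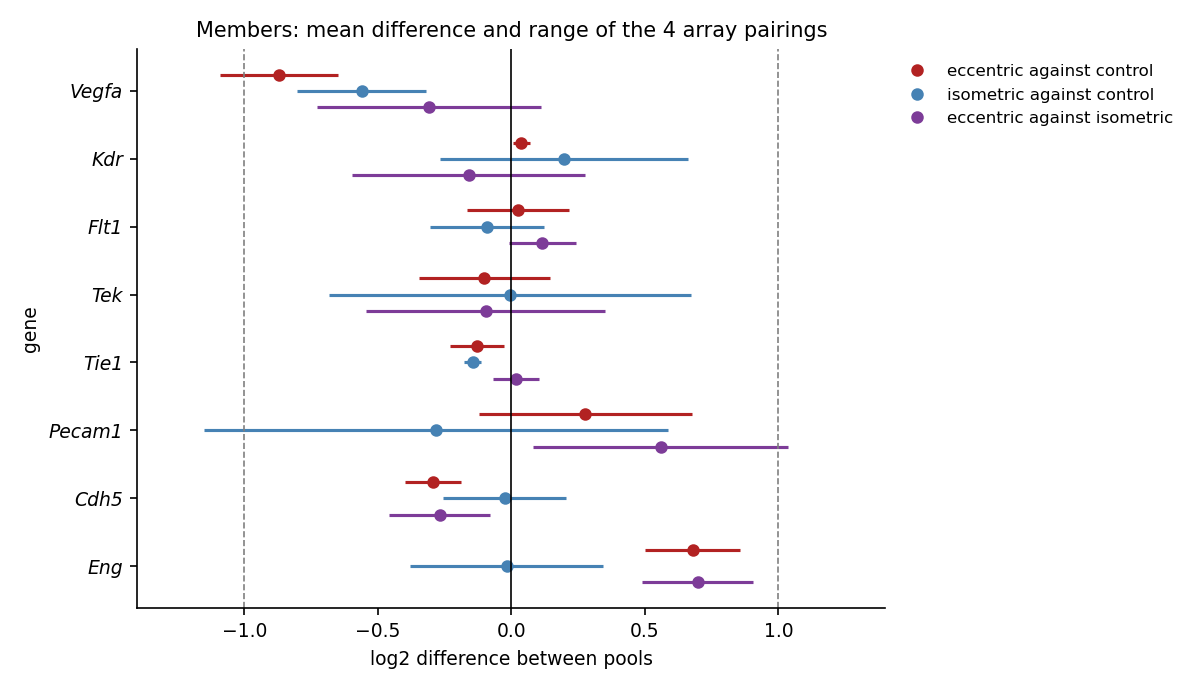
Mean log2 difference between pools (points) for the 8 genes in the 3 comparisons, with a line over the range of the 4 array pairings and dashed lines at the 2-fold rule. Vegfa lies left of 0 in both comparisons with the control, at -0.87 and -0.56, Eng lies near 0.7 in both comparisons of the eccentric pool, and the longest line, Pecam1 isometric against control, runs from -1.15 to 0.59.

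Pecam1, an adhesion molecule of endothelial junctions that platelets and leukocytes also carry, varied most between arrays of a pool. Probe set 97830_at read 471.2 and 272.4 in the control, 433.4 and 435.1 in the eccentric and 409.3 and 212.0 in the isometric pool. The eccentric arrays lay between those of the control and above those of the isometric pool. The gap between arrays was 1.73-fold in the control, exceeded by 5.23% of genes, and 1.93-fold in the isometric pool, exceeded by 2.41%. The log2 difference was 0.28 ± 0.40 (SE) eccentric minus control and -0.28 ± 0.62 isometric minus control. Eccentric minus isometric it was 0.56 ± 0.47, with pairings from 0.08 to 1.04, and 498 of 5622 genes (8.86%) had a higher difference. Sign aside, 14.7% of genes had a difference of larger size. Without isometric array A, Pecam1 passed the 2-fold rule at 1.04, and without array B the difference was 0.09.

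Cdh5, the cadherin of endothelial adherens junctions, was lowest in the eccentric pool. Probe set 104083_at read 1338.4 and 1480.8 in the control, 1124.5 and 1173.5 in the eccentric and 1543.4 and 1240.8 in the isometric pool. The eccentric arrays lay below all 4 others, by a margin under the 1.5-fold threshold. The log2 difference was -0.29 ± 0.08 (SE) eccentric minus control, 1.23-fold lower, and -0.27 ± 0.16 eccentric minus isometric. Isometric and control arrays overlapped, with a difference of -0.02 ± 0.17. Eccentric minus control, 49.8% of genes had a difference of larger size.

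Eng, the BMP and TGF-beta co-receptor, was highest in the eccentric pool. Probe set 100134_at read 1283.6 and 1614.6 in the control, 2286.4 and 2325.9 in the eccentric and 1242.2 and 1627.9 in the isometric pool. The eccentric arrays stood above all 4 others, and the control and isometric arrays covered nearly the same range. Pool means were 1449 ± 234 (SD, n = 2 arrays), 2306 ± 27.9 and 1435 ± 273. The log2 difference was 0.68 ± 0.17 (SE) eccentric minus control, with pairings from 0.50 to 0.86, and 588 of 5682 genes (10.3%) had a higher one. It was 0.70 ± 0.20 eccentric minus isometric, 1.62-fold, and 308 of 5622 genes (5.48%) had a higher one. Isometric minus control it was -0.02 ± 0.26. Sign aside, 15.1% of genes had a difference of larger size eccentric against control, and 8.56% eccentric against isometric.

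Markers of immune cells were also highest in the eccentric pool. Endoglin is known on activated monocytes and macrophages as well as on endothelium. Of 12 macrophage and monocyte markers, 11 were compared eccentric against control, and 9 were called higher and 0 lower, with a median log2 difference of 1.68. With the dimmest probe set of each gene 7 could be compared and 4 were called, and Csf1r, called on its brighter probe set and named here after its values were seen, gave -0.28. Ccr2, a chemokine receptor of inflammatory monocytes, was 4.91-fold higher, and Tyrobp, a signalling adaptor of myeloid cells, 3.75-fold. Their summed signal was 5666 and 5930 in the control, 18771 and 18885 in the eccentric and 11344 and 10935 in the isometric pool, and none lay below the floor on all arrays. Isometric against control 3 of 10 were called higher, 1 to 4 with 1 array left out and 0 of 5 with the dimmest probe sets. Eccentric against isometric 5 of 11 were called higher, and 4 to 7 with 1 array left out. The summed signal of these markers in the isometric pool lay between those of the other pools. All 5 general leukocyte markers were compared, and 4 were called higher, with summed signals of 2753 and 2818, 7190 and 7659, and 3629 and 4282. Of 4 platelet markers, Pf4, Gp1bb and Itgb3 lay below the floor on all arrays. The part of immune cells in the Eng and Pecam1 values was not tested.

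The 7 endothelial genes differed among themselves. Their summed signal was 4968 and 5465 in the control, 5696 and 5914 in the eccentric and 5273 and 4870 in the isometric pool. Without Eng, a sum made after the values were seen, it was 3685 and 3851, 3409 and 3588, and 4031 and 3242. The eccentric pool was thus highest with Eng and not without it. Counting Vegfa, 4 of the 8 genes lay above 0 and 4 below eccentric minus control (2 and 6 under quantile normalization), with a median of -0.04 against -0.02 over all genes. Isometric minus control, 1 lay above 0 and 7 below, but 4 and 4 when arrays were scaled to one median and 5 and 3 without control array B, while 49.0% of all genes lay above 0. The median was -0.06 against -0.01 over all genes, and Vegfa alone kept its sign in all 12 alternatives of this comparison. Its array pairings shared a sign, so only the other scalings could have changed that. Eccentric minus isometric, 4 lay above and 4 below (3 and 5 when scaled to one median or quantile-normalized, 6 and 2 without isometric array A), with a median of -0.04 against 0.02.

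The arrays of the pools did not overlap for 5 of the 8 genes eccentric against control (Vegfa, Kdr, Cdh5, Tie1 and Eng, 62.5%), against 61.9% of all genes. Isometric against control this held for Vegfa and Tie1 (25.0%, against 37.3% of all genes), and eccentric against isometric for Pecam1, Cdh5 and Eng (37.5%, against 53.5%). Tie1 is counted on its brighter probe set, and the dimmer one also separated both exercised pools from the control, with the opposite sign. The median size of the difference, sign aside, was 0.20 eccentric against control (0.29 over all genes), 0.12 isometric against control (0.18) and 0.21 eccentric against isometric (0.24). The sizes were thus close to those of the array as a whole, or smaller.

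**Figure D3:**
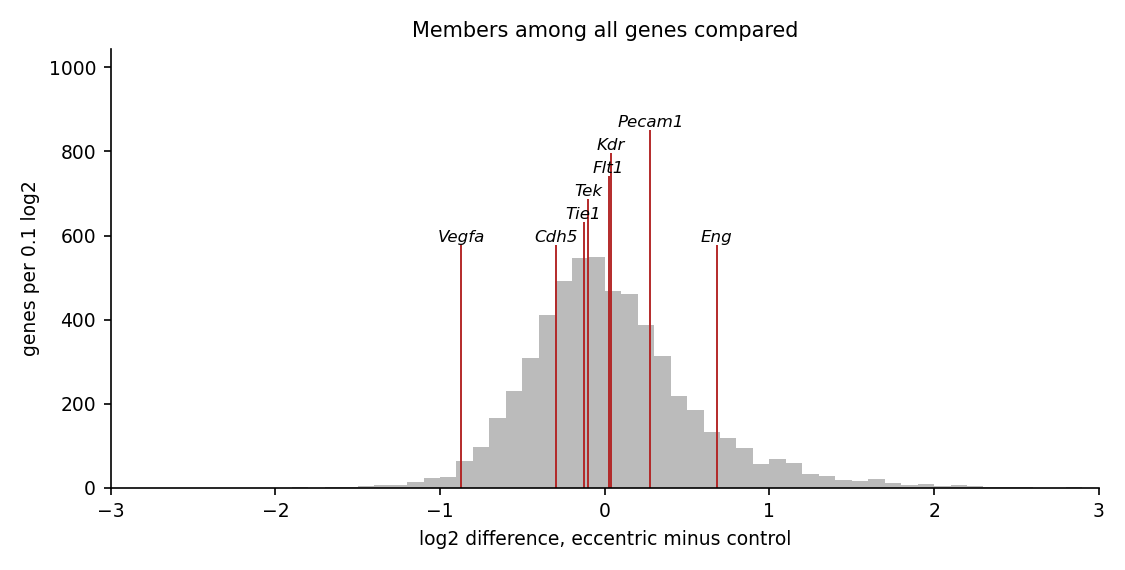
Histogram of the log2 difference eccentric minus control over the 5682 genes compared (genes per bin of the log2 axis), with a vertical line and name for each of the 8 genes. Vegfa at -0.87 lies in the lower tail and Eng at 0.68 in the upper shoulder, and the other 6 lie between -0.29 and 0.28.

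Other genes of these pathways were described from 12 lists, of whose 159 genes 131 were on the array. Eccentric against control, 5 of 95 compared were called higher and 0 lower (5.26%, against 6.21% of all genes). Isometric against control, 2 of 92 were called higher and 0 lower (2.17%, against 1.24%), and eccentric against isometric 3 of 91 higher and 0 lower (3.30%, against 2.4%). With 1 array left out the calls were 4 to 6 higher and 0 to 2 lower eccentric against control, 0 to 3 and 0 to 1 isometric against control, and 2 to 3 and 0 to 1 eccentric against isometric. None of these shares was tested.

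Among other VEGF ligands, receptors and co-receptors, 0 of 5 compared were called eccentric against control, with a median log2 difference of -0.24. Vegfb, a ligand of Flt1 that is abundant in muscle, read 2335.5 and 2204.1 in the control, 1510.6 and 1578.8 in the eccentric and 2532.7 and 1962.6 in the isometric pool. Its eccentric arrays lay below all 4 others, at -0.55 from the control. Pgf, the placental growth factor that binds Flt1, gave -0.37, with arrays that overlapped.

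In the angiopoietin and Tie group, 0 of 5 were called eccentric against control and 1 of 5 eccentric against isometric. Dok2, a docking protein below Tek that blood cells also use, read 231.1 and 261.0 in the control, 490.0 and 439.0 in the eccentric and 246.2 and 187.7 in the isometric pool. It was 2.16-fold higher in the eccentric than in the isometric pool, a call lost without isometric array B (0.91 on the log2 scale). Of the ligands, named after their values were seen, Angpt1 lay below the floor on all arrays, and Angpt2 gave -0.15 eccentric minus control and overlapped between pools.

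Of 6 genes of oxygen sensing compared eccentric against control, 1 was called higher and 0 lower, and the median was -0.25. Hif1a, the oxygen-regulated subunit of the factor that drives Vegfa in hypoxia, read 1091.8 and 1062.0 in the control, 2140.8 and 2247.8 in the eccentric and 1329.1 and 1471.7 in the isometric pool. It was 2.04-fold higher eccentric against control, and its second probe set gave 1.09 on the log2 scale; without eccentric array B the call was lost, at 0.99. Epas1, the related subunit typical of endothelium, and Egln1, the oxygen-sensing hydroxylase, were named after their values were seen. Epas1 read 365.1 and 331.5, 164.6 and 210.7, and 299.1 and 232.0 in the same order. Its log2 difference was -0.90 eccentric minus control, short of the 2-fold rule, and the arrays of all 3 pools lay apart. Egln1 gave -0.82, also short of the rule. The RNA signals of Hif1a and Vegfa thus had opposite signs in both comparisons with the control. The arrays did not measure Hif1a protein, and its part in the Vegfa values was not tested. The probe set used for Hif1a has the same suffix as the dimmer Tie1 probe set, which marks probes shared within a sequence family.

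Of 8 other hypoxia-response targets on the array, 6 were compared eccentric against control and 0 were called. Their median log2 difference was -0.58, 5 lay below 0, and 3 passed the 1.5-fold threshold, all lower. Over all genes 19.4% passed it in either direction, and of the 10 fibre markers 3 did, all lower. The part of the fibre content in these values was not tested. Pfkfb3, an activator of glycolysis, read 335.4 and 374.4 in the control, 208.3 and 172.4 in the eccentric and 344.7 and 380.9 in the isometric pool, a difference of -0.90 eccentric minus control and 0.03 isometric minus control. Bnip3, a mitochondrial stress protein, gave -0.80 and -0.66. Isometric against control the median of the 6 compared was -0.02, with 0 called.

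Below the VEGF receptors, 0 of 9 signalling genes were called eccentric against control, with a median of 0.25, and 1 of 9 isometric against control. That gene was Src, a kinase used by many receptors, which read 102.1 (below the floor) and 158.9 in the control, 352.7 and 188.8 in the eccentric and 349.1 and 236.1 in the isometric pool. Its 2.07-fold difference isometric against control was lost without control array A or isometric array A, with a lowest log2 value of 0.77. Among angiogenic factors outside the VEGF family 0 of 7 were called, with Ccn2, a matrix protein, at 0.77 and Fgf1 at -0.52. Among angiogenesis inhibitors 0 of 7 were called, with Spry4, an antagonist of receptor tyrosine kinase signalling, at -0.76.

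Eng's partners and the BMP and TGF-beta genes held 2 called of 15 eccentric against control, with a median of -0.01. Id2, a transcriptional regulator induced by BMP signals, read 325.7 and 431.9 in the control, 1291.4 and 1249.0 in the eccentric and 940.4 and 678.9 in the isometric pool. It was 3.39-fold higher eccentric against control and 2.13-fold higher isometric against control, and the second call was lost without control array A or isometric array A (0.86 at the lowest on the log2 scale). Tgfb1, the ligand, read 52.5 and 34.6 in the control, below the floor, 351.9 and 329.8 in the eccentric and 131.5 and 152.8 in the isometric pool. It was at least 2.82-fold higher eccentric against control, taking the control at the floor, and 2.40-fold higher than in the isometric pool. Acvrl1, the type I receptor that works with Eng in endothelium and was picked after its values were seen, gave -0.31 eccentric minus control, the opposite sign to Eng.

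**Figure D4:**
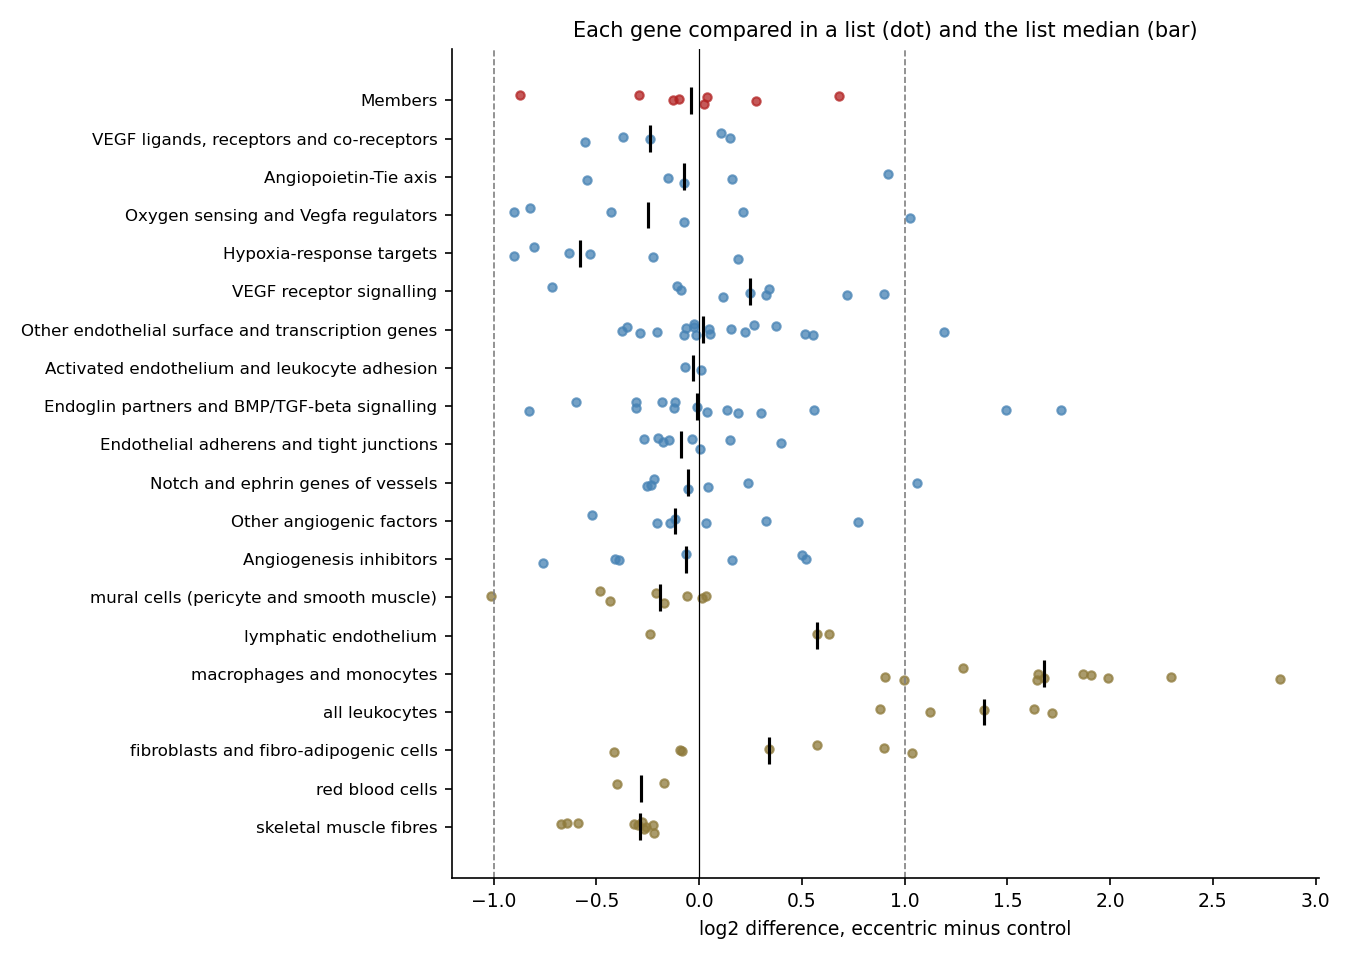
Log2 difference eccentric minus control of each gene compared (dots) in the pathway and marker lists, with a bar at each list's median and dashed lines at the 2-fold rule. The macrophage and leukocyte markers lie well to the right, with medians of 1.68 and 1.39, the other endothelial genes scatter around 0.02, and the hypoxia-response targets have a median of -0.58.

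Other endothelial genes lay on either side of the control. Of 25 on the array and 18 compared eccentric against control, 1 was called higher and 0 lower, 9 lay above 0, and the median was 0.02. Isometric against control 0 of 18 were called, with a median of 0.04. Their summed signal was 12188 and 13108 in the control, 13430 and 13080 in the eccentric and 13111 and 13219 in the isometric pool, and Aplnr, Calcrl, Icam2, Klf2 and Tal1 lay below the floor on all arrays. Lyl1, a transcription factor of endothelial and blood cells, was the called gene, 2.29-fold higher eccentric against control on its brighter probe set and 0.35 on the log2 scale on the dimmer.

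Of the 8 endothelial junction genes compared, 0 were called eccentric against control. Ctnna1, alpha-catenin, which links Cdh5 to actin, gave 0.40. Of the 7 Notch and ephrin genes, Notch1, a receptor of arterial identity, was called at 1.06, from 364.0 and 78.0 in the control, the latter below the floor and raised to it, to 487.7 and 391.2 in the eccentric pool. That call was lost without control array B or eccentric array A (0.26 at the lowest), and another Notch1 probe set gave -0.45. Of the leukocyte adhesion genes of activated endothelium only 2 of 6 could be compared, Vcam1 at -0.07 and Madcam1 at 0.01, both with arrays that overlapped. With low values raised to the floor, other probe sets gave 0.57 and 0.00 for Vcam1 and 0.44 for Madcam1. The probe sets of these genes thus differed.

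Vessels also hold mural cells, the pericytes and smooth muscle around the endothelium. Of 8 mural markers compared eccentric against control, 0 were called higher and 1 lower, with a median of -0.19. Leaving out 1 array put that median between -0.36 and -0.23. Abcc9, a potassium channel subunit of pericytes that muscle fibres share, read 676.7 and 834.4 in the control, 386.9 and 359.2 in the eccentric and 612.2 and 396.6 in the isometric pool. Its log2 difference of -1.01 was lost as a call without control array B or eccentric array B (-0.86 at the smallest size). The summed signal of 9 mural markers was 5314 and 5596 in the control, 4610 and 4670 in the eccentric and 5439 and 5770 in the isometric pool, with Cnn1 below the floor on all arrays. Of 3 lymphatic endothelial markers compared, 0 were called, with Pdpn at least 1.55-fold higher, taking its control at the floor, and Lyve1 at 0.57 with control array A below the floor. The third, Flt4, named after its values were seen, went the other way at -0.24. Its arrays did not overlap, and all 6 lay above the floor. Prox1, the defining factor, was below the floor on all arrays. Of 7 fibroblast markers Thy1 was called, at 1.04, a call lost without eccentric array A or under quantile normalization (0.98 at the lowest), and of 2 red cell genes 0 were called, with Alas2 at -0.40.

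Genes of most similar pattern were sought for the 5 members that spanned at least 0.5 on the log2 scale over the 6 arrays, among 3372 other genes that were above the floor on all arrays and spanned as much. Flt1, Cdh5 and Tie1 spanned 0.31, 0.46 and 0.23 and were left out. For Vegfa the closest were Kifap3 (r = 0.986), Snx13 (0.986) and Cd200 (0.982). For Eng they were Tsr1 (0.986), Wsb1 (0.984) and Drg1 (0.978). Kifap3 averaged 513 ± 9.68 (SD, n = 2 arrays) for control, 265 ± 47.9 for eccentric and 343 ± 43.1 for isometric muscle, the order seen for Vegfa. Tsr1 averaged 559 ± 25.8, 759 ± 1.91 and 569 ± 77.4, the order seen for Eng.

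For Kdr the closest were Gdap10 (0.979), S100a14 (0.977) and Pex6 (0.964), for Tek Celf2 (0.992), Cse1l (0.977) and Tmem59 (0.976), and for Pecam1 Dtymk (0.979), Itpkb (0.972) and Rest (0.970). For Kdr and Tek the whole span over the 6 arrays, 0.87 and 0.88, was the gap between the isometric arrays. The coefficients are Pearson's, over 6 arrays of 3 pools that share scaling and hybridisation, and describe those arrays only.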

How the data were processed

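Total RNA pools of tibialis anterior muscle, 1 per group and 4 animals each, were read on 2 arrays per pool. The deposited files hold, for each array, a linear intensity for every probe set, as the authors computed it; the software and probe summary were not given in the sources used here. Trimmed means (2% cut at each end) were 500.32 to 500.35, so the arrays were at nearly one level as deposited, and a shift shared by most genes would not show.

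Each array was rescaled to one trimmed mean, by factors within 2.93e-05 of 1. Values under the 40th percentile of all values, 120.8, were raised to that floor, and the deposited intensities were put on the log2 scale. Probe sets were named from the platform annotation, and 10833 had 1 gene symbol. For the 2073 genes with several probe sets, the one of highest mean signal stood for the gene. A gene was compared when at least 1 pool had it above the floor on its 2 arrays. No correction for cross-hybridisation was added to the deposited values. The precision is limited by the 2 arrays per pool.

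The genes and lists were chosen with earlier results of these data known, and so support nothing independently. All probe sets of the 8 genes are named. From each list, up to 4 called genes or, with none called, the 1 or 2 of largest difference eccentric against control are named, and exceptions are stated. Simulated data with known changes were used to test the calling rule. Alternatives changed scaling, floor, filter, threshold, probe set and arrays, or used limma 3.58.1 (R 4.3.3) with Benjamini-Hochberg adjustment. Values were computed in Python 3.11.15 (pandas 2.3.3, numpy 2.4.6, scipy 1.17.1) and plotted with matplotlib 3.10.9.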

Additional observations from a re-analysis of the deposited data

How the results depend on the processing

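The count of members called was 0 in every comparison under each other scaling, floor, filter and choice of probe set. At a 1.5-fold threshold it was 2 eccentric against control and 1 eccentric against isometric. Leaving out 1 array gave 0 to 1 in each of these comparisons: Vegfa without eccentric array A, and Pecam1 without isometric array A. Leave-one-out medians over the members ran from -0.134 to -0.0055 eccentric minus control, from -0.21 to 0.048 isometric minus control and from -0.20 to 0.16 eccentric minus isometric. Leaving out control array A together with isometric array B, an alternative chosen after seeing the data, the eccentric minus control median was -0.13. Vegfa kept its sign in all 12 alternatives of each comparison (-1.07 to -0.67 eccentric minus control, -0.78 to -0.34 isometric minus control), as did Eng (0.51 to 0.85) and Cdh5 (-0.37 to -0.22) eccentric minus control. Each of these genes has a single probe set above the floor on all arrays, so the floor, filter and probe set alternatives could not change its value. In these comparisons with the control all array pairings shared a sign, so leaving out arrays could not change it. Only the other scalings could have done so. Kdr, Flt1, Pecam1, Tek and Tie1 changed sign eccentric minus control in 1 to 6 of 12, and isometric minus control every member but Vegfa did in 1 to 5 of 12. With limma on the arrays, 0 members were called in any comparison without a replicate block (540, 1 and 81 genes in all) and 0 with the letter as a replicate block (308, 0 and 8 genes). At an unadjusted p under 0.05 these fits gave Vegfa and Eng eccentric against control, Vegfa isometric against control and Eng eccentric against isometric, with the block or without. Letters A and B mark arrays, and the labels do not say whether same-letter arrays were processed together. Deviations of same-letter arrays from their pool means correlated at 0.03, -0.10 and -0.04. No strong effect shared by a letter showed, but with 2 arrays per pool this cannot settle whether the letters paired the pools. A crossed pairing of control and isometric letters called 0 members and 0 genes, left 0 members (Vegfa included) at an unadjusted p under 0.05, and was also chosen after seeing the data. These p-values measure the spread between arrays of 1 pool, not between animals.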
